A study of Mus musculus with 4 samples.

Results

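Astrocyte marker genes were followed in messenger RNA of the mouse hippocampus. They comprised 9 genes of astrocyte identity, gap junctions and reactivity (Gfap, Vim, Aqp4, Gja1, Gjb6, S100b, Aldh1l1, Sox9 and Glul), chosen by symbol from the 15713 genes of the deposited table. All 9 were found, 1 row each, and all 9 stayed in after the filter on low counts. RNA came from C57BL/6 mice, an inbred laboratory strain, 11 to 12 weeks old, with 2 libraries per group. The group called ATO carried the label of developmental exposure to ATO at 5000 ppb, and the group called control was labelled untreated. ATO is not spelled out in the labels, while the series title names arsenic-exposed offspring. The libraries held 16696546 to 17251032 counts in ATO and 14832214 to 15078919 in control, so that 1 count was worth 0.058 to 0.0674 CPM (counts scaled by library size). All 8 markers of the hippocampal formation that were looked up were counted in all 4 libraries, the lowest being Spink8 at 17.5 normalised CPM in ATO replicate 1. The labels do not state whether replicates are separate animals or litters, so the p-values measure only the spread between these libraries, which may be technical.

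Astrocytes are the glial cells that clear glutamate and potassium from around synapses, wrap blood vessels with their endfeet and are coupled to each other by gap junctions. Gfap and Vim encode the intermediate filament proteins that become more abundant when astrocytes turn reactive, Aqp4 the water channel of the endfoot, and Gja1 and Gjb6 the gap junction proteins connexin 43 and connexin 30. S100b encodes a calcium-binding protein, Aldh1l1 an enzyme of folate metabolism, Glul the glutamine synthetase that converts glutamate taken up from synapses, and Sox9 a transcription factor of the glial lineage. Several of these genes are not confined to astrocytes. For example, Vim is also expressed by endothelial, meningeal and ependymal cells, and S100b and Sox9 by ependymal cells. These examples are not a full list, and the other genes, Gjb6 among them, are not thereby shown to be confined to astrocytes.

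Stretches of 250 bases before the transcription start are shown for the connexin genes and for Gfap, the classical astrocyte marker, because these 3 genes carry the comparison of gap junction and filament transcripts given further on. They come from RefSeq on build GRCm38.p6, run 5′ to 3′ in the direction of the gene and have motif matches in capitals. An entry was found for 7 of the 9 genes, all except Aqp4 and Sox9. The Gjb6 window is chr14:57133612-57133861 on the minus strand, the Gja1 window chr10:56377050-56377299 on the plus strand and the Gfap window chr11:102897201-102897450 on the minus strand.
Gjb6: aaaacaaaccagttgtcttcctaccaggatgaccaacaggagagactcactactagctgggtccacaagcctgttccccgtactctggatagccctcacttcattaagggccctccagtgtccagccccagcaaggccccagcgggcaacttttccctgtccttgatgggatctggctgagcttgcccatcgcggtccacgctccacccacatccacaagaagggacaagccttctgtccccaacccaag
Gja1: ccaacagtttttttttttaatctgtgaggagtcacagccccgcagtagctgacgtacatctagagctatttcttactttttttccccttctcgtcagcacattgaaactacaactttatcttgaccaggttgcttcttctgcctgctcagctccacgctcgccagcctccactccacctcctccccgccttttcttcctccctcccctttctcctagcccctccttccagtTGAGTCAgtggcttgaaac
Gfap: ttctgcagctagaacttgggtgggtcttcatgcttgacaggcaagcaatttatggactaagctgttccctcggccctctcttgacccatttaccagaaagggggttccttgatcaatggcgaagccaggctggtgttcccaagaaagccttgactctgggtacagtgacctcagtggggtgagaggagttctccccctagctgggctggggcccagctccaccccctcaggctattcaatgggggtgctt
These windows were searched on both strands for a TATA box (TATAAA), a GC box (GGGCGG), an AP-1 motif (TGANTCA) and a STAT motif (TTCNNNGAA); the last 2 read the same on both strands. The match in capitals is the AP-1 motif of Gja1, which spans bases 19 to 13 before the start, overlaps no other of these motifs and is a description of letters, not of a bound site. Among all 32851 windows of this length, 6.75% held that AP-1 motif, 12.4% the TATA box, 32.7% the GC box and 7.02% the STAT motif. The Gjb6 and Gfap windows held none of these 4 letter strings. Of the other windows, that of Vim held a TATA box and those of Aldh1l1 and Glul a GC box each, and that of S100b held none of the 4. All 250 bases of the Vim window and 4 of the Aldh1l1 window lie in exons that GENCODE annotates for the same gene, so the Vim match lies within annotated exon sequence. The Gfap, Vim and Aldh1l1 windows lie inside the span that GENCODE annotates for the gene. They come before the RefSeq start but not before the whole annotated gene.

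Of the 9 astrocyte marker genes, Gjb6 rose in ATO by 1.35-fold, and none of the others passed the test in either direction. A gene is said to have passed, risen or fallen at a Benjamini-Hochberg adjusted p under 0.05 in edgeR's quasi-likelihood test over all 15713 genes, a level that 3.73% of all genes reached, 2.87% by rising and 0.859% by falling. The log2 fold changes of ATO over control ran from -0.28 for Aldh1l1 to 0.44 for Gjb6, with a median of 0.19 over the 9 genes and of -0.01 over all genes. The log2 fold change was above 0 for 7 of the 9, as it was for 49.0% of all genes. The groups did not overlap for 7 of the 9 genes, against 48.1% of all genes; both ATO libraries stood above the controls for 6 of the 9 (24.8% of all genes) and below them for Aldh1l1 (23.4%). An unadjusted p under 0.05 was found for 6 of the 9, against 18.1% of all genes. Without ATO replicate 1 or without control replicate 2, 0 of the 9 genes passed; without ATO replicate 2 or without control replicate 1, 3 passed. In bulk tissue a change in the number of astrocytes cannot be told apart from a change in RNA per astrocyte. Nor can either be told apart from a change in RNA of other cells that express these genes. Markers of other cell types are given further on.

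**Figure D1:**
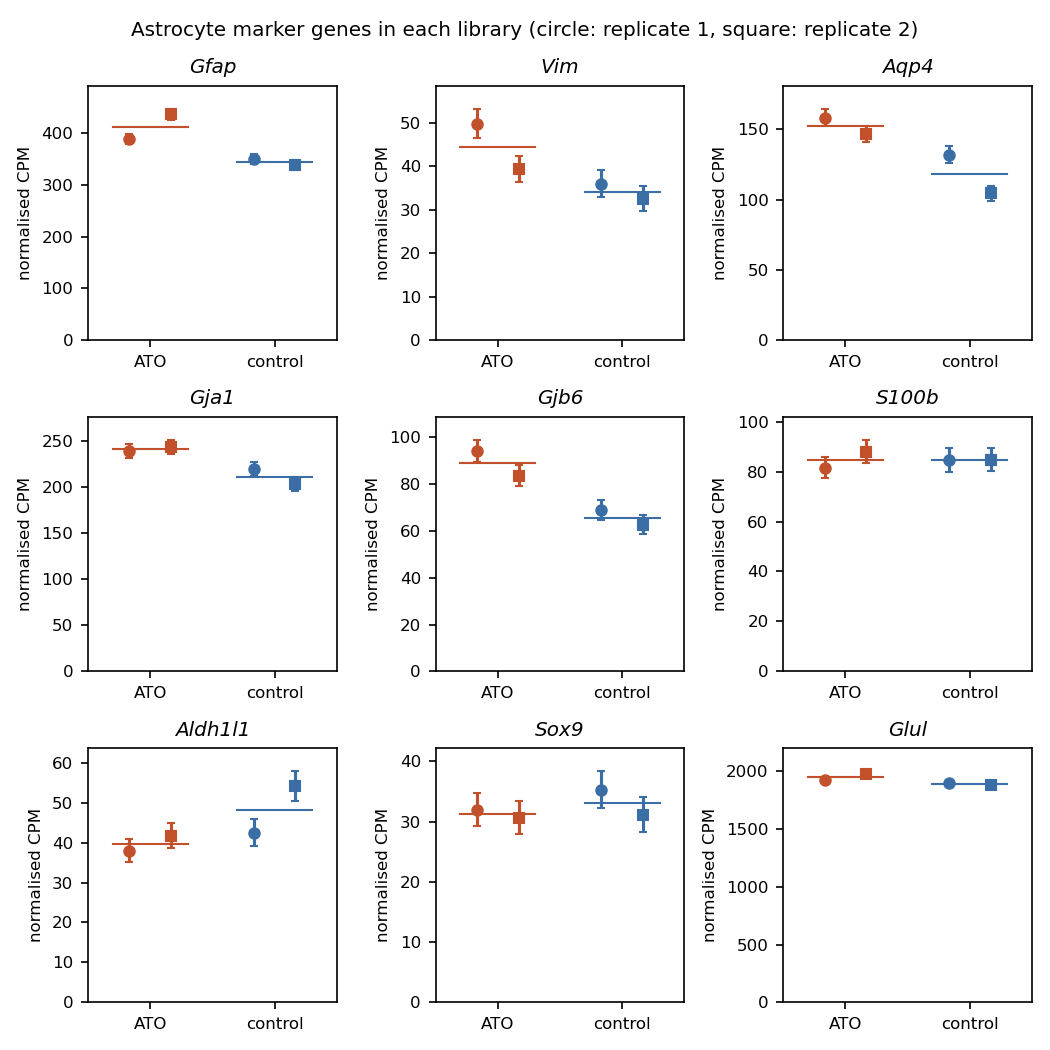
Normalised CPM (y axis, from 0) of each of the 9 astrocyte marker genes in the ATO and control libraries, with circles for replicate 1, squares for replicate 2, bars for exact Poisson 95% counting intervals and horizontal lines for group means. Both ATO libraries stand above both controls for Gfap, Vim, Aqp4, Gja1, Gjb6 and Glul, and below them for Aldh1l1.

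The gap junction gene Gjb6 (ENSMUSG00000040055, chromosome 14 from 57123303 to 57133611, minus strand, GRCm38, protein-coding) had 94.1 and 83.7 normalised CPM in ATO replicates 1 and 2, against 68.8 and 62.6 in control replicates 1 and 2. The groups did not overlap, and the lower ATO library stood above the higher control by more than their counting intervals, 79.3 to 88.2 and 64.6 to 73.2 CPM (exact Poisson 95% intervals, which cover counting error only). The means were 88.9 ± 7.40 CPM in ATO and 65.7 ± 4.39 CPM in control (SD, n = 2 each), a log2 fold change of 0.44 ± 0.09 (SE; 95% interval from 0.25 to 0.63) with an adjusted p of 0.0137 in edgeR's quasi-likelihood test. The authors' deposited table gives Gjb6 an adjusted p of 0.0169 and no mark for differential expression, a mark that 0 of the 9 genes carry there. Gjb6 no longer passed without ATO replicate 1 (log2 fold change 0.35, adjusted p = 0.11) and without control replicate 2 (0.37, adjusted p = 0.116).

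Gja1 (ENSMUSG00000050953, chromosome 10 from 56377330 to 56402513, plus strand), whose connexin 43 is the other main astrocyte connexin, had 239 and 243 normalised CPM in ATO against 219 and 203 in control. The ATO libraries lay close together and above both controls, which differed more from each other. Its log2 fold change was 0.19 ± 0.07 (SE; 95% interval from 0.03 to 0.35), and the adjusted p of 0.187 did not pass. Within a library, the ratio of Gjb6 to Gja1 in deposited FPKM, a level scaled by gene length and library size, was 1.51 and 1.32 in ATO against 1.21 and 1.18 in control. Both ATO libraries had the higher ratio; no test was run, since a permutation of 2 against 2 libraries cannot give a p below 0.333.

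Of the other connexin and pannexin genes and the gap junction scaffold gene Tjp1, 11 of 19 were tested; 1 rose and 0 fell, with 5 log2 fold changes above 0, 6 below 0 and a median of -0.05 against -0.01 over all genes. The one that rose was Tjp1, which encodes the scaffold protein ZO-1 and had 106 ± 0.271 CPM in ATO and 86.5 ± 1.66 in control (log2 0.29 ± 0.08, adjusted p = 0.0496 in edgeR). That call sat at the threshold and was lost whichever library was left out, with adjusted p from 0.0695 without control replicate 1 through 0.162 without control replicate 2 and 0.189 without ATO replicate 2 to 0.23 without ATO replicate 1. It was also lost with library size only (0.0502), upper quartile factors (0.0667), limma-voom (0.0542) and DESeq2's Wald test (0.12). Gjb2, which encodes connexin 26, a connexin of astrocytes and meninges, had 11.0 and 8.97 CPM in ATO against 6.99 and 5.69 in control. Its groups did not overlap, and its log2 fold change of 0.66 ± 0.20 had an adjusted p of 0.0798. Gjc1, the connexin 45 gene, stood at 0.62 ± 0.23 (adjusted p = 0.171) and Gja5, the connexin 40 gene of arterial endothelium, at 1.26 ± 0.48 (adjusted p = 0.176) with under 2 CPM in each library. The lowest of the 11, named after its values were seen, was Gja4, the connexin 37 gene of vascular endothelium. It had 1.38 and 1.99 CPM in ATO against 3.595 and 2.12 in control (log2 -0.76 ± 0.36, unadjusted p = 0.0498, adjusted p = 0.275 in edgeR).

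Gfap (ENSMUSG00000020932, chromosome 11 from 102887336 to 102900912, minus strand) had 387 and 435 normalised CPM in ATO against 349 and 338 in control. Both ATO libraries were above both controls, and the ATO libraries differed from each other by more than ATO replicate 1 differed from control replicate 1. The means were 411 ± 33.9 CPM in ATO and 344 ± 7.88 CPM in control (SD, n = 2 each), a log2 fold change of 0.26 ± 0.08 (SE; 95% interval from 0.09 to 0.43) that did not pass (adjusted p = 0.0898). Without 1 library it ran from 0.17 without ATO replicate 2 (adjusted p = 0.553) to 0.34 without ATO replicate 1 (adjusted p = 0.0899). Vim (ENSMUSG00000026728, chromosome 2 from 13573927 to 13582826, plus strand) had 49.7 and 39.3 CPM in ATO against 35.9 and 32.4 in control. ATO replicate 1 stood apart, and the counting interval of ATO replicate 2, from 36.3 to 42.4 CPM, overlapped that of control replicate 1, from 32.9 to 39.1 CPM. The log2 fold change of Vim was 0.38 ± 0.12 (95% interval from 0.13 to 0.63) with an adjusted p of 0.0888. It was 0.54 with an adjusted p of 0.00444 without ATO replicate 2, and 0.20 with an adjusted p of 0.687 without ATO replicate 1. The ratio of Vim to Gfap in deposited FPKM was 0.114 and 0.0803 in ATO against 0.0914 and 0.0854 in control, so the groups overlapped.

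Of 14 other genes of intermediate filaments and their linker, 13 were tested, with 7 log2 fold changes above 0, 6 below 0 and a median of 0.04. At an unadjusted p under 0.05 in edgeR, 3 were higher and 1 lower. By adjusted p 2 rose and 0 fell. Those that rose were the keratin genes Krt18 and Krt8, which form the filaments of simple epithelia. Krt18 had 54 and 76 counts in ATO against 6 and 6 in control, a depth-corrected ratio of 9.49 with an exact binomial 95% counting interval from 5.25 to 18.8 (edgeR adjusted p = 0.000403). Krt8 had 23 and 23 counts in ATO against 0 and 2 in control, 20.2 times as many after depth correction (counting interval 5.27 to 171). Its adjusted p was 0.00645, and 0.0524 without control replicate 1; without control replicate 2 the lone control count is 0 and the fitted value is no bound. In the same libraries 20 markers of the choroid plexus, which makes the cerebrospinal fluid, summed to 3374 and 4228 normalised CPM in ATO against 150 and 219 in control; their part in the keratin counts was not tested. Nes, the nestin gene of neural progenitors and reactive astrocytes, had 15.4 and 16.5 CPM in ATO against 12.0 and 11.4 in control, and its log2 fold change of 0.45 ± 0.14 did not pass (adjusted p = 0.103).

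Aqp4 (ENSMUSG00000024411, chromosome 18 from 15389496 to 15410982, minus strand) had 158 and 147 normalised CPM in ATO against 132 and 104 in control. The groups did not overlap, but the controls differed from each other by more than the ATO libraries did. The means were 153 ± 8.26 CPM in ATO and 118 ± 19.5 CPM in control (SD, n = 2 each), a log2 fold change of 0.37 ± 0.10 (SE; 95% interval from 0.16 to 0.58) with an adjusted p of 0.0528, just short of the threshold. It was 0.55 with an adjusted p of 0.00844 without control replicate 1 and 0.42 with 0.0134 without ATO replicate 2, against 0.20 with 0.295 without control replicate 2. Leaving out the mitochondrially encoded genes, which took 6.66% to 6.68% of the counts in ATO and 5.87% to 7.45% in control, gave an adjusted p of 0.0486.

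Of 13 genes of the endfoot, where Aqp4 is anchored by the dystrophin complex, 0 rose and 1 fell, with a median log2 fold change of 0.12. The one that fell was Agrn, which encodes agrin, a heparan sulfate proteoglycan of the basement membrane around brain vessels: it had 198 and 203 CPM in ATO against 249.6 and 270.1 in control (log2 -0.38 ± 0.08, adjusted p = 0.0132 in edgeR). Agrn no longer passed without ATO replicate 1 (adjusted p = 0.0778) and without control replicate 2 (0.0736). The dystrophin complex genes Dtna (α-dystrobrevin) and Dag1 (dystroglycan) stood at log2 0.19 ± 0.08 and 0.18 ± 0.08, with adjusted p of 0.196 and 0.254.

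S100b (ENSMUSG00000033208, chromosome 10 from 76253853 to 76261159, plus strand) had 81.5 and 88.0 normalised CPM in ATO against 84.6 and 84.7 in control. Its ATO libraries fell on either side of the controls. For S100b the log2 fold change was 0.00 ± 0.08, with a 95% interval from -0.17 to 0.17 and an adjusted p of 0.996, and its sign changed with the scaling (-0.02 with upper quartile factors). Of 14 other S100 genes 6 were tested and 0 rose or fell; by unadjusted p in edgeR 0 of the 6 were under 0.05, and DESeq2's Wald test and limma-voom called 0 as well.

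Aldh1l1 (ENSMUSG00000030088, chromosome 6 from 90486427 to 90600203, plus strand) was the marker gene with the most negative log2 fold change: it had 37.9 and 41.6 normalised CPM in ATO against 42.4 and 54.0 in control. The groups did not overlap, yet ATO replicate 2 and control replicate 1 were within their counting intervals, 38.6 to 44.8 and 39.1 to 45.9 CPM. The log2 fold change was -0.28 ± 0.11 (SE; 95% interval from -0.52 to -0.04), with an adjusted p of 0.207. The size rested on 1 control: it was -0.44 (adjusted p = 0.0463) without control replicate 1 and -0.10 (adjusted p = 0.743) without control replicate 2. In the annotation 499 exon bases of Aldh1l1 are shared with the antisense gene Gm15756; no source used here states strand-specific counting, so reads of this pair cannot be told apart. Of 16 other folate enzyme genes 15 were tested and 0 rose or fell, with a median log2 fold change of -0.12 and 2 at an unadjusted p under 0.05 in edgeR; DESeq2's Wald test and limma-voom also called 0. The methionine synthase reductase gene Mtrr had the smallest p of them, at 0.44 ± 0.13 (adjusted p = 0.0819).

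Glul (ENSMUSG00000026473, chromosome 1 from 153899944 to 153909723, plus strand) was the most abundant of the marker genes, with 1922.5 and 1977 normalised CPM in ATO against 1897 and 1883 in control. Both ATO libraries were above both controls by a small margin. Glul had a log2 fold change of 0.05 ± 0.07 (SE; 95% interval from -0.11 to 0.20) with an adjusted p of 0.805. In the annotation 116 of its exon bases are shared with Teddm2 on the opposite strand, which had 132 counts over all 4 libraries. Relative to Gfap in deposited FPKM, Glul stood at 5.54 and 5.07 in ATO against 6.06 and 6.21 in control, lower in both ATO libraries; no test was run on this ratio. Of 13 genes of glutamate and glutamine handling 0 rose or fell in edgeR and DESeq2's Wald test, with 2 at an unadjusted p under 0.05 in edgeR and a median log2 fold change of -0.02; 1 passed without ATO replicate 1. The astrocyte glutamate transporter genes Slc1a2 and Slc1a3 stood at log2 0.02 ± 0.08 (95% interval from -0.16 to 0.20) and -0.02 ± 0.09 (from -0.20 to 0.17). Slc38a3, the transporter that releases glutamine from astrocytes, had 49.4 and 57.1 CPM in ATO against 41.6 and 43.0 in control (log2 0.33 ± 0.10, adjusted p = 0.0746).

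Sox9 (ENSMUSG00000000567, chromosome 11 from 112782224 to 112787760, plus strand) had 31.9 and 30.6 normalised CPM in ATO against 35.2 and 31.1 in control. The groups overlapped, since ATO replicate 1 lay above control replicate 2. Sox9 had a log2 fold change of -0.08 ± 0.10 (SE; 95% interval from -0.31 to 0.14) with an adjusted p of 0.735. Among 20 transcription factors and signals of astrocyte formation, 2 rose and 1 fell, with a median log2 fold change of 0.08. Id4, an inhibitor of basic helix-loop-helix factors, had 97.2 and 99.4 CPM in ATO against 82.3 and 73.5 in control (log2 0.34 ± 0.08, adjusted p = 0.0388 in edgeR). Stat3, the transcription factor that drives Gfap in reactive astrocytes, had 50.9 and 56.7 CPM in ATO against 42.3 and 41.5 in control (log2 0.36 ± 0.09, adjusted p = 0.0454). Il6st, which encodes the receptor subunit gp130 upstream of STAT3, had 80.9 and 75.7 CPM in ATO against 62.7 and 64.0 in control (log2 0.31 ± 0.08) and an adjusted p of 0.0510. Sox2, a factor of neural progenitors and glia, fell to 34.2 and 31.7 CPM in ATO, against 45.3 and 41.5 in control (log2 -0.40 ± 0.10, adjusted p = 0.0418). These 3 calls each ended in several settings. With control replicate 2 left out, Id4 had an adjusted p of 0.192, Stat3 of 0.171 and Sox2 of 0.073, and with ATO replicate 2 left out these were 0.123, 0.300 and 0.184. With ATO replicate 1 left out they were 0.0932 for Id4 and 0.0583 for Sox2, without control replicate 1 0.0844 for Stat3 and 0.132 for Sox2, and in DESeq2's Wald test 0.0793 for Id4, 0.138 for Stat3 and 0.115 for Sox2. Other scalings or tools ended calls as well: Id4 (0.0506) and Stat3 (0.0558) with upper quartile factors, Stat3 in limma-voom (0.0519) and Sox2 with library size only (0.0514).

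**Figure D2:**
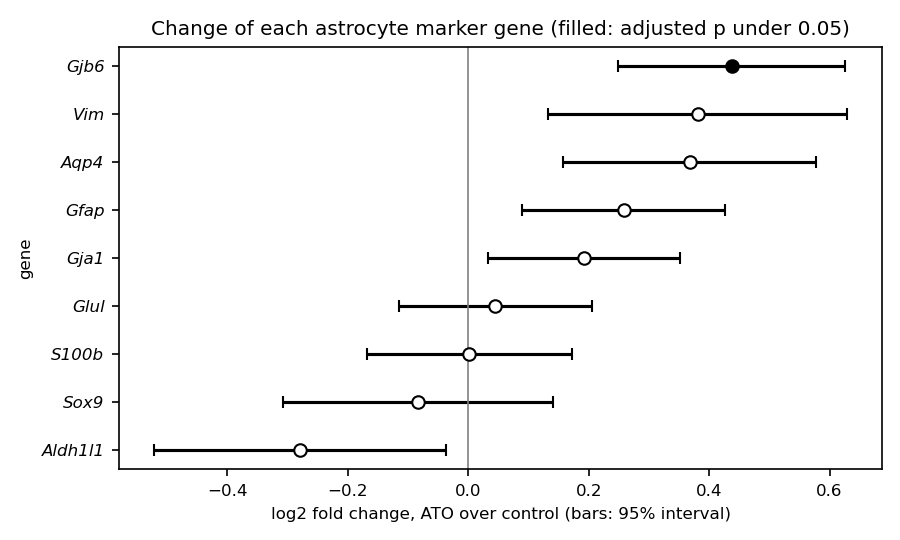
Log2 fold change of ATO over control (x axis) of the 9 astrocyte marker genes (y axis), with bars for 95% intervals from edgeR's quasi-likelihood fit and a filled point where the adjusted p was under 0.05. Gjb6 is the filled point at 0.44; the intervals of Glul, S100b and Sox9 include 0.

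Per gene length, the 9 genes covered a wide span. In deposited FPKM, Glul ranged from 497 to 519 over the 4 libraries, Gfap from 80.1 to 102 and S100b from 55.3 to 58.8, and these 3 were separated from each other and from the rest in every library. Gjb6 (23.4 to 35.5), Gja1 (19.8 to 23.5) and Aqp4 (16.7 to 25.6) followed, and neighbours among these 3 overlapped. Aldh1l1 (8.45 to 11.95), Vim (6.84 to 10.6) and Sox9 (7.34 to 8.44) were lowest and overlapped too. Between replicates, the controls differed least for S100b and Glul, with coefficients of variation of 0.0909% and 0.53% in control against 5.37% and 1.99% in ATO. They differed most for Aldh1l1 and Aqp4, at 6.60% and 5.41% in ATO and 17.1% and 16.5% in control. The replicates within a group thus stood up to log2 0.35 apart, the difference of the Aldh1l1 controls, which is larger than the group difference of 5 of the other 8 genes.

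**Figure D3:**
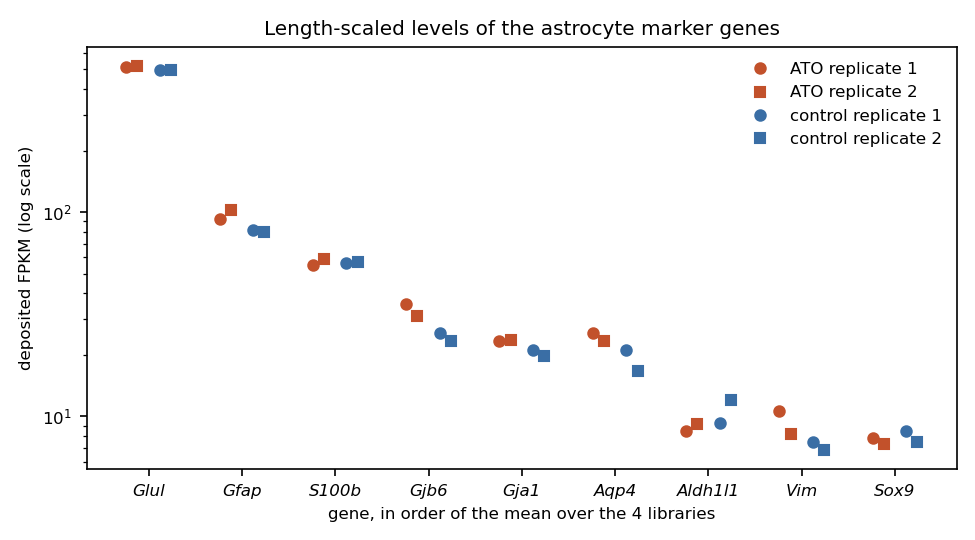
Deposited FPKM (y axis, log scale) of the 9 astrocyte marker genes (x axis, ordered by the mean over the 4 libraries) in the ATO and control libraries. Glul lies between 497 and 519 and Sox9 between 7.34 and 8.44; the ATO points of Gjb6 lie above its control points.

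Beyond the 9 markers, 34 other genes enriched in astrocytes were all tested. Of these, 3 rose and 0 fell, the median log2 fold change was -0.01, and the summed level was 8876 and 9429 normalised CPM in ATO against 9240 and 9054 in control, so the groups overlapped. Those that rose were Dio2, the deiodinase that activates thyroid hormone in astrocytes (117 and 120.0 CPM in ATO against 76.7 and 54.1 in control, log2 0.86 ± 0.12, adjusted p = 0.000716), the serine and glycine transporter gene Slc7a10 (37.0 and 41.1 CPM in ATO against 28.0 and 28.8 in control, log2 0.46 ± 0.10, adjusted p = 0.0244) and Id4, given above. Fgfr3, a fibroblast growth factor receptor of astrocytes, had 97.0 and 92.3 CPM in ATO against 118.5 and 113 in control (log2 -0.29 ± 0.08, adjusted p = 0.0510). The call of Dio2 held without each library in turn. That of Slc7a10 was lost without ATO replicate 2 (adjusted p = 0.144), without control replicate 1 (0.0733), without control replicate 2 (0.0941) and in DESeq2's Wald test (0.068).

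Genes that rise in reactive mouse astrocytes were taken as 3 lists. Bulk counts do not show which cells these transcripts came from, and the part of other cells was not tested. Of 11 genes raised by inflammation and ischaemia alike, 8 were tested. Of these 2 rose and 0 fell, with 7 log2 fold changes above 0, 1 below 0 and a median of 0.46. Hspb1, a small heat shock protein gene, had 16.9 and 12.0 CPM in ATO against 7.05 and 5.69 in control (log2 1.18 ± 0.20, adjusted p = 0.00367 in edgeR; 0.071 without control replicate 2). Lcn2, the gene of the secreted iron-binding lipocalin, had 33 and 32 counts in ATO against 8 and 1 in control, a depth-corrected ratio of 6.33 with an exact binomial 95% counting interval from 3.14 to 14.5 (log2 2.63 ± 0.57, adjusted p = 0.0208). The Lcn2 value depended on which control was used, at log2 4.70 without control replicate 1 and 1.80 (adjusted p = 0.148) without control replicate 2, and DESeq2's Wald test gave an adjusted p of 0.0592. Of 12 genes raised after lipopolysaccharide, 9 log2 fold changes were above 0 and 3 below 0, the lowest at -0.26, with a median of 0.47. In this list 2 rose and 0 fell. They were Fkbp5, a co-chaperone gene that glucocorticoids also induce (110.3 and 96.7 CPM in ATO against 75.2 and 73.4 in control, log2 0.48 ± 0.09, adjusted p = 0.00572), and the interferon-induced GTPase gene Gbp2 (means of 3.67 ± 0.251 CPM in ATO and 1.45 ± 0.641 CPM in control, SD, log2 1.34 ± 0.34, adjusted p = 0.0441). With ATO replicate 1 left out, Fkbp5 had an adjusted p of 0.0583 and Gbp2 of 0.109, with control replicate 2 left out these were 0.0561 and 0.243, and DESeq2's Wald test gave 0.148 for Gbp2. The complement gene C3, often used as a marker of neuroinflammatory astrocytes, had 1.26 and 1.69 CPM in ATO against 0.339 and 0.861 in control (log2 1.28 ± 0.49, adjusted p = 0.177). Of 13 genes raised after ischaemia 10 were tested, with 8 log2 fold changes above 0, 2 below 0 and a median of 0.18. Of these 1 rose, Stat3, given above, and 0 fell.

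Markers of radial glia and neural stem cells, which share several astrocyte genes, moved in both directions. Of 13 tested 1 rose and 1 fell, with a median log2 fold change of -0.03. Fabp7, a fatty acid binding protein gene of radial glia and astrocytes, had 40.1 and 37.2 CPM in ATO against 31.1 and 22.6 in control (log2 0.52 ± 0.13, adjusted p = 0.0405 in edgeR). It stood at 0.31 (adjusted p = 0.244) without control replicate 2 and 0.47 (0.0588) without ATO replicate 1, and DESeq2's Wald test gave 0.0739. The gene that fell was Sox2, given above.

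**Figure D4:**
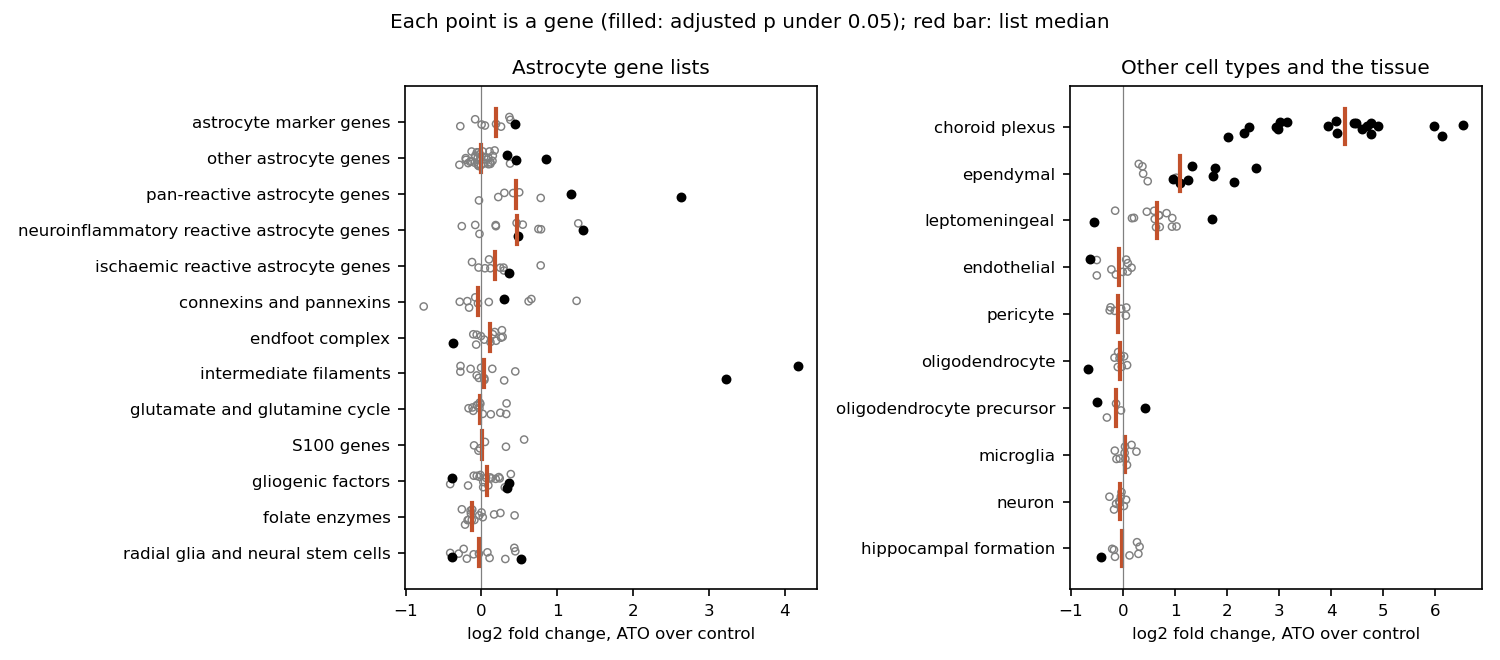
Log2 fold change of ATO over control (x axes) of each tested gene, by list (y axes), for the astrocyte gene lists on the left and for markers of other cell types and of the tissue on the right; filled points had an adjusted p under 0.05 and red bars are list medians. The median of the astrocyte marker genes lies at 0.19 and that of the choroid plexus markers at 4.27.

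Markers of cells at the ventricle were higher in ATO. All 20 choroid plexus markers rose (median log2 fold change 4.27), and of 13 tested ependymal markers 8 rose and 0 fell (median 1.09), with summed levels of 66.6 and 53.2 normalised CPM in ATO against 27.1 and 33.0 in control. The ependymal count was 3 in DESeq2's Wald test, 6 in limma-voom and 1 among genes with a mean of at least 5 CPM, 9 without ATO replicate 2 and 3 without any one of the other libraries. Of 16 leptomeningeal markers 1 rose and 1 fell (median 0.66). Of these 16, 8 were higher and 1 lower at an unadjusted p under 0.05 in edgeR. Without ATO replicate 2, 10 rose and 1 fell, without control replicate 1, 4 rose and 1 fell, without control replicate 2, 0 rose or fell, and with a replicate block 9 rose and 1 fell. Their sum was 753.5 and 409 CPM in ATO against 494 and 332 in control, so that the groups overlapped. Replicate 1 was the higher library in both groups. Gjb6, Vim, Aqp4 and Sox9 had this order too, while Gfap, Gja1, S100b, Aldh1l1 and Glul did not. The share of all genes with this order was not counted, so the likeness is a description only. None of these markers was at 0 in any library. The part of these cells in the values of Gjb6, Vim, Aqp4 and Gfap was not tested. Nor was it tested for the genes that rise in reactive astrocytes. Microglial markers (9 tested, 0 rose or fell, median 0.04), neuronal markers (9 tested, 0 rose or fell, median -0.06) and pericyte markers (6 tested, 0 rose or fell, median -0.10) had 1, 1 and 0 genes at an unadjusted p under 0.05 in edgeR, and 0 passed in DESeq2's Wald test or limma-voom. Of 10 endothelial markers 0 rose and 1 fell (median -0.07), of 9 oligodendrocyte markers 0 rose and 1 fell (median -0.07), and of 5 markers of oligodendrocyte precursors 1 rose and 1 fell (median -0.13). At an unadjusted p under 0.05 in edgeR, 4 endothelial markers were lower and 0 higher, against 18.1% of all genes in either direction. By that measure 1 oligodendrocyte marker was lower and 0 higher, and 2 precursor markers were lower and 1 higher. In DESeq2's Wald test the numbers that passed were 0, 1 and 1 for these 3 lists. Of the 8 markers of the hippocampal formation 0 rose and 1 fell (median -0.01), with 3 others higher at an unadjusted p under 0.05. The one that fell was Wfs1, a marker of CA1 pyramidal neurons, with 65.0 and 83.4 CPM in ATO against 92.6 and 105.55 in control (log2 -0.42 ± 0.11, adjusted p = 0.0463 in edgeR). Its adjusted p was 0.411 without ATO replicate 1, 0.263 without control replicate 2, 0.0522 without control replicate 1, 0.0524 by DESeq2 and 0.0562 where only library sizes were used, so the call ended in each. Without ATO replicate 2 it was 0.000117.

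**Figure D5:**
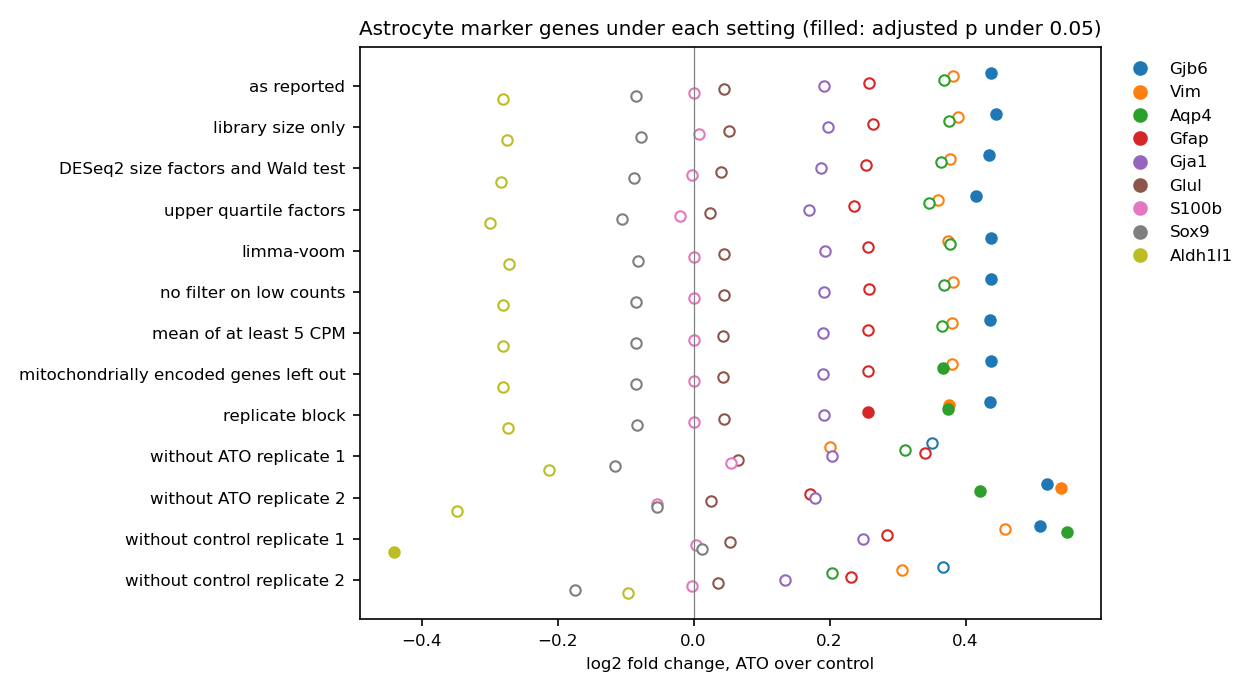
Log2 fold change of ATO over control (x axis) of the 9 astrocyte marker genes under the reported fit and under each alternative setting (y axis), filled where the adjusted p was under 0.05. The setting with no filter repeats the reported fit. Gjb6 is filled in 10 of 12 alternatives.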

How the data were processed

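Per the labels' protocols, sequencing libraries were prepared from hippocampal mRNA with an Illumina TruSeq kit. The submitters' processing notes name HISAT2 (2.0.1), HTSeq (0.6.1), cutadapt (1.9.1), FastQC (0.10.1), limma (3.47.15), R (4.1.0) and build GRCm38, with no roles or settings. Per the file headers, the deposited table holds a count of reads per gene and an FPKM value for each library, with the authors' log2 fold change, p-value and adjusted p-value. The deposited FPKM values kept a constant ratio to the counts across genes within each pair of libraries and served only to compare levels between genes.

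The deposited counts were fitted with edgeR 4.0.16 in R 4.3.3 (filterByExpr, which removed 0 genes, TMM factors from 0.994 to 1.01, quasi-likelihood test with no covariate, Benjamini-Hochberg over 15713 genes; biological coefficient of variation 7.16%). The fit was tested on counts simulated with its own estimates of spread. Such counts cannot show how well the model describes these libraries. Normalised CPM are counts over TMM-scaled library sizes. The SE is the log2 fold change over the square root of F, and the 95% interval uses the fit's degrees of freedom. Positions and overlaps come from GENCODE vM21 (GRCm38), which held 99.9% of the identifiers.

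The 9 genes, 12 further gene lists and 10 marker lists were chosen with earlier results of these data known. The text names all 9 genes and, of each of the 12 further lists, the genes that passed and up to 4 with the smallest p, and the 3 genes closest in pattern to Gfap and to Gja1; the marker lists are given as counts; Slc1a2, Slc1a3, Gja4 and Wfs1 were added after their values were seen, and 1 gene that this rule takes is not reported here. Alternatives were DESeq2 1.42.0, limma-voom (limma 3.58.1), library size only, upper quartile factors, no filter, a mean of at least 5 CPM, omission of mitochondrially encoded genes, a replicate block, and each library left out in turn.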

Additional observations from a re-analysis of the deposited data

How the results depend on the processing

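Of the 9 astrocyte marker genes, 1 passed in the reported fit, 2 with mitochondrially encoded genes left out (Aqp4 at log2 0.367 joined), 4 with a replicate block and 0 to 3 without 1 library. Gjb6 passed in 10 of 12 alternatives, at log2 0.35 to 0.52 without 1 library. Without 1 library the log2 fold change ran from 0.20 to 0.55 for Aqp4, 0.20 to 0.54 for Vim, -0.44 to -0.10 for Aldh1l1, -0.175 to 0.012 for Sox9 and -0.054 to 0.055 for S100b, so the last pair changed sign. S100b was also at -0.002 in DESeq2's Wald test and at -0.02 with upper quartile factors. The sign of the other 7 held in all 12 alternatives. The setting with no filter repeats the reported fit, since the filter removed 0 genes, and so adds nothing to these counts. Over all genes, 586 passed as reported, 316 in DESeq2's Wald test, 1366 with the replicate block and 222 to 611 without 1 library.

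With the replicate block, Gfap (0.256, adjusted p = 0.016), Vim (0.375, 0.0116) and Aqp4 (0.374, 0.00105) passed beside Gjb6. The labels give the groups the same replicate numbers, but the deviations of same-numbered libraries had a correlation of 0.0877 across genes, and nothing shows that the numbers pair animals, so this fit is no main result. The block gave counts of 5 (other astrocyte genes), 4 (genes raised by inflammation and ischaemia), 2 (connexins), 4 (intermediate filaments), 2 (glutamate), 1 (folate) and 4 (radial glia), against 3, 2, 1, 2, 0, 0 and 2.

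DESeq2's Wald test gave 1 for the other astrocyte genes, 1 for the genes raised by inflammation and ischaemia, 1 for those raised after lipopolysaccharide and 0 for those raised after ischaemia, connexins, gliogenic factors and radial glia. Upper quartile factors gave 0 for ischaemia, 0 for connexins and 1 for gliogenic factors; limma-voom gave 0 for ischaemia and connexins; library size only gave 0 for connexins and 1 for radial glia. A mean of at least 5 CPM, which removes the low genes, gave 1, 1 and 0 for inflammation and ischaemia, lipopolysaccharide and intermediate filaments. Without 1 library the counts were 1 to 2 for other astrocyte genes, 0 to 3 for inflammation and ischaemia, 0 to 4 for lipopolysaccharide, 0 to 1 for ischaemia, connexins, endfoot, glutamate and radial glia, 1 to 2 for intermediate filaments and 0 to 2 for gliogenic factors. Beyond construction, the cause of these moves was not tested. With lengths from the annotation, the ratio of Glul to Gfap was 6.31 and 5.77 in ATO against 6.89 and 7.07 in control.

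With 2 libraries per group, a gene that did not pass is not shown to be unchanged.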

Other observations

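Among 10059 genes with a mean of at least 10 CPM, the 3 whose pattern over the 4 libraries lay closest to that of Gfap were Pcsk6, which encodes a proprotein convertase, Fxyd5, a regulator of the sodium pump, and Tmed10, a cargo receptor of the early secretory pathway. Their root mean square differences from Gfap were 0.0116, 0.0126 and 0.0135 on the log2 scale after centring each gene. Fxyd5 had 11.2 and 12.5 normalised CPM in ATO against 9.90 and 9.80 in control. The 3 closest to Gja1 were Rab31, a small GTPase gene, Tex2, a lipid-binding protein gene of the endoplasmic reticulum, and Gpatch2l, at 0.0048, 0.00501 and 0.00791. Rab31 had 65.7 and 66.9 CPM in ATO against 60.7 and 56.0 in control. These names describe likeness over 4 libraries only.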
